A study of Mus with 4 samples.

Results

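The CD94 and NKG2 receptors are C-type lectin-like receptors of natural killer (NK) cells. The set holds 8 genes chosen by name, Klrd1, Klrc1, Klrc2, Klrc3, Klrk1, Klre1, Klri1 and Klri2, out of 30142 genes with a row of their own in the expression table. All 8 were named by exactly 1 row, no row combined any of them with another gene, and all 8 passed the filter on low values, which left 16245 genes to be tested. Expression was measured on 4 Affymetrix arrays of liver NK cells sorted as DX5-negative, 2 of wild-type (WT) cells and 2 of cells from dnTGFbRII mice, which carry a dominant-negative TGF-beta receptor II. All mice were females aged 6 to 8 weeks, both genotypes are labelled as C57BL/6, and the labels name no agent given to either. DX5 is an antibody to the integrin chain Itga2, and liver NK cells that lack it are regarded as resident in the organ. The labels do not name the promoter of the transgene or say how many mice or sorts stand behind an array. As background, the widely used mouse line of this name drives the receptor from the Cd4 promoter, which is active in T cells. The genotype rests on the labels, since the transgene was not measured here as a feature of its own. With no statement that arrays of a genotype are separate animals, p-values describe the spread between arrays only, and that spread may be technical. Values are log2 expression, so a difference of 1 is a 2-fold difference, and all differences are dnTGFbRII minus WT.

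As background, CD94, the product of Klrd1, pairs with a chain of the NKG2 family. CD94 with NKG2A (Klrc1) inhibits the cell through motifs in the NKG2A tail that recruit phosphatases, while CD94 with NKG2C (Klrc2) or NKG2E (Klrc3) signals through the adaptor DAP12 (Tyrobp). These pairs bind the non-classical class I molecule Qa-1, which displays leader peptides of classical class I molecules and so reports whether a neighbouring cell makes them. NKG2D (Klrk1) pairs with itself, not with CD94, signals through DAP10 (Hcst) and, in the mouse, also DAP12, and binds stress-induced ligands. Klre1 encodes a partner chain for the Klri1 and Klri2 products, with Klri1 forming an inhibitory and Klri2 an activating receptor. Resident and circulating NK cells of the mouse liver carry CD94, NKG2A and NKG2D, and some T cells carry them as well.

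The measured levels of all 8 receptor genes lay lower on average in dnTGFbRII than in WT cells, and the activating CD94 partners Klrc3 and Klrc2 had the largest differences, -0.69 ± 0.13 and -0.60 ± 0.15 (SE). None of the 8 passed an adjusted p of 0.05 in limma, in either direction, and neither did any other gene of the table (0% of genes tested). The adjusted p of each of the 8 was 1.00. At an unadjusted p under 0.05 in limma, 2 of the 8 lay lower and 0 higher, against 3.23% of all tested genes in either direction, 1.29% lower and 1.95% higher. Both dnTGFbRII arrays lay below both WT arrays for 6 of the 8, against 14.5% of tested genes, and for 0 of the 8 did both lie above, against 12.6%. After the quantile normalization was repeated on the deposited values, 3 of the 8 lay lower without overlap, Klrc2, Klrc3 and Klri1, against 14.0% of tested genes. The median difference of the 8 genes was -0.30, beside -0.01 over all genes tested, of which 52.6% were negative. Among the 2862 tested genes with a mean at least as high as that of the lowest receptor, the median was -0.03 and 56.5% were negative. No gene of the set differed by 2-fold. Since these are bulk samples, fewer cells carrying a receptor and less RNA per cell cannot be told apart.

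Klrd1, the shared CD94 chain, measured 17.18 and 17.33 on the WT arrays of replicates 1 and 2 and 16.97 and 17.11 on the dnTGFbRII arrays. The groups did not overlap, but the gap of 0.07 between the nearest arrays was smaller than the distance between the arrays of either genotype (0.15 in WT and 0.14 in dnTGFbRII). The mean went from 17.26 ± 0.11 to 17.04 ± 0.10 (SD, n = 2). The difference of -0.21 ± 0.14 (SE) had a 95% interval from -0.57 to 0.15 (limma unadjusted p = 0.188), and it was -0.13 both without WT replicate 2 and after repeated quantile normalization.

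Klrc1, which encodes the inhibitory chain NKG2A, measured 15.66 and 15.82 in WT and 15.23 and 15.57 in dnTGFbRII cells. The groups were 0.08 apart, less than the 0.34 between the dnTGFbRII arrays, and the replicate 1 array of dnTGFbRII was the lowest. The means were 15.74 ± 0.12 and 15.40 ± 0.24 (SD, n = 2), a 1.26-fold lower level. In limma the difference was -0.34 ± 0.17 (SE), and its 95% interval ran from -0.80 to 0.12 (unadjusted p = 0.114). Without dnTGFbRII replicate 1 it was -0.17, and without dnTGFbRII replicate 2 it was -0.51.

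Klrc2, which encodes the activating chain NKG2C, measured 14.82 and 14.53 in WT and 14.11 and 14.06 in dnTGFbRII cells. Here the gap between the groups, 0.43, exceeded the distance between the WT arrays (0.29) and between the dnTGFbRII arrays (0.05). The means were 14.68 ± 0.20 and 14.08 ± 0.03 (SD, n = 2), a 1.51-fold lower level. The limma difference of -0.60 had a 95% interval from -1.0002 to -0.19 (unadjusted p = 0.0138). Without WT replicate 1, the higher of the WT arrays, it was -0.45 and its unadjusted p rose to 0.0951.

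Klrc3, which encodes NKG2E, measured 13.11 and 13.01 in WT and 12.46 and 12.29 in dnTGFbRII cells. The arrays of each genotype lay close together, 0.10 apart in WT and 0.17 in dnTGFbRII, and the groups were 0.55 apart. The means were 13.06 ± 0.07 and 12.37 ± 0.12 (SD, n = 2), a 1.61-fold lower level. The difference of -0.69 had a 95% interval from -1.04 to -0.33 (limma unadjusted p = 0.0049). Among the 16245 tested genes it ranked 116 from the lowest difference and 60 by p. Klrc1, Klrc2 and Klrc3 are close copies whose probes can take up each other's transcripts, so the share of the signal that belongs to each is uncertain.

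**Figure D1:**
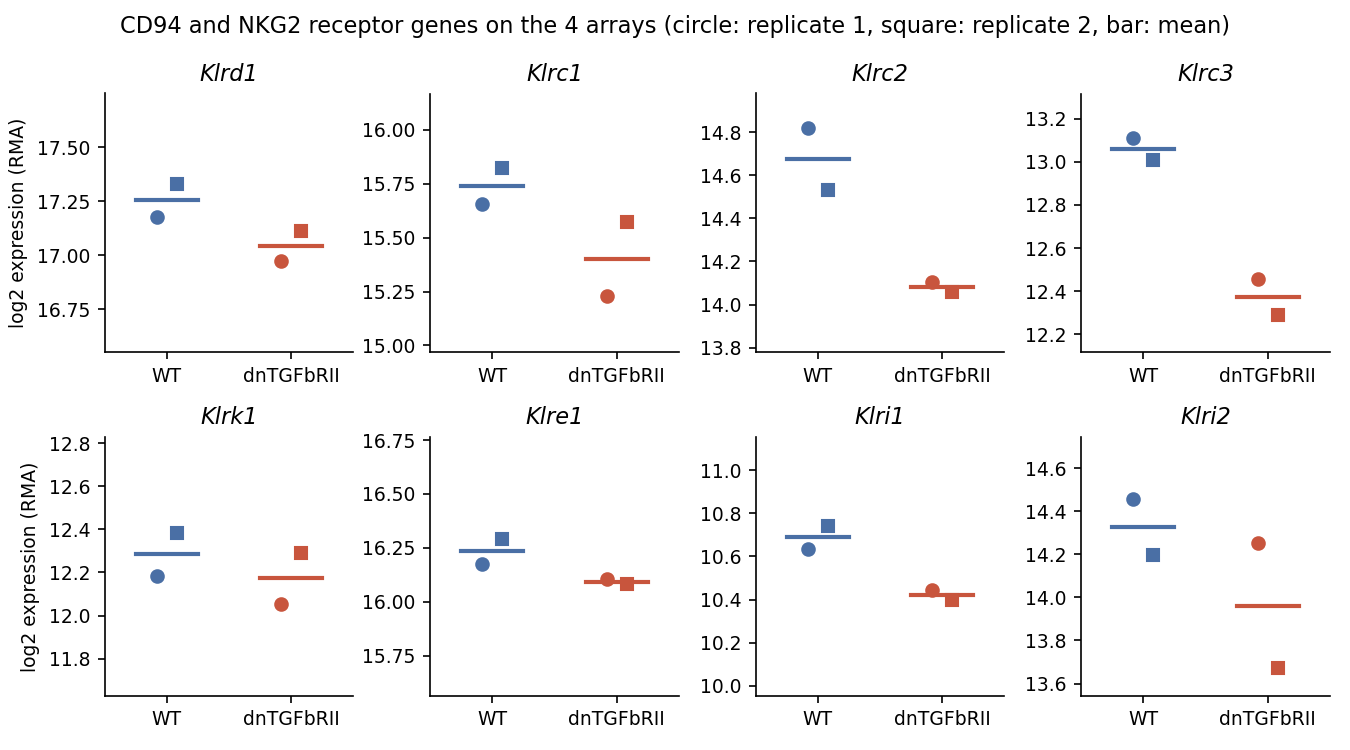
Log2 expression (vertical axis, RMA values, each panel spanning the same width of 1.2 log2 units around its own mean) of the 8 receptor genes on the 2 WT arrays (blue) and the 2 dnTGFbRII arrays (red), with circles for replicate 1, squares for replicate 2 and a bar for the mean. Klrc2 and Klrc3 show the widest gaps between the groups (0.43 and 0.55), and the groups overlap for Klrk1 and Klri2.

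Klrk1, which encodes NKG2D, overlapped between the genotypes. It measured 12.19 and 12.38 in WT and 12.06 and 12.29 in dnTGFbRII cells, so that dnTGFbRII replicate 2 lay above WT replicate 1. The means of 12.28 ± 0.14 and 12.17 ± 0.17 (SD, n = 2) differed by -0.11 ± 0.16 (SE), with a 95% interval from -0.52 to 0.30 (limma unadjusted p = 0.514). The interval allows a level up to 0.52 lower or 0.30 higher, so these arrays do not show that NKG2D was alike in both genotypes. Without dnTGFbRII replicate 1 the sign turned, to 0.01, and without WT replicate 2 the difference was -0.01.

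Klre1, the shared partner of the Klri chains, measured 16.18 and 16.29 in WT and 16.10 and 16.08 in dnTGFbRII cells. The groups did not overlap, and their gap of 0.07 was below the 0.12 between the WT arrays. The means went from 16.23 ± 0.08 to 16.09 ± 0.02 (SD, n = 2), and the difference was -0.14 ± 0.12 (SE; limma unadjusted p = 0.313), or -0.08 both without WT replicate 2 and after repeated quantile normalization.

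Klri1, the inhibitory partner, measured 10.63 and 10.74 in WT and 10.44 and 10.40 in dnTGFbRII cells. Its groups were 0.19 apart, more than the arrays of either genotype (0.11 and 0.05). The difference was -0.27 ± 0.12 (SE), from 10.69 ± 0.08 to 10.42 ± 0.03 (SD, n = 2). Its 95% interval ran from -0.60 to 0.06 (limma unadjusted p = 0.0896).

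Klri2, the activating partner, was the most variable of the set within a genotype. It measured 14.46 and 14.20 in WT and 14.25 and 13.67 in dnTGFbRII cells, and the groups overlapped. The means were 14.33 ± 0.19 and 13.96 ± 0.41 (SD, n = 2). The difference of -0.37 ± 0.24 (SE) had a 95% interval from -1.01 to 0.28 (limma unadjusted p = 0.198). Without dnTGFbRII replicate 2, the lowest array, the difference was -0.07 and without dnTGFbRII replicate 1 it was -0.66. Klri1 and Klri2 are close copies too, and their single values share the uncertainty of the Klrc genes.

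Ordered by size, the differences ran from Klrc3 over Klrc2, Klri2, Klrc1, Klri1, Klrd1 and Klre1 to Klrk1. The distance between neighbours in this order was at most 0.23, between Klrc2 and Klri2, and 0 pairs of the 8 had 95% intervals that lay apart.

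**Figure D2:**
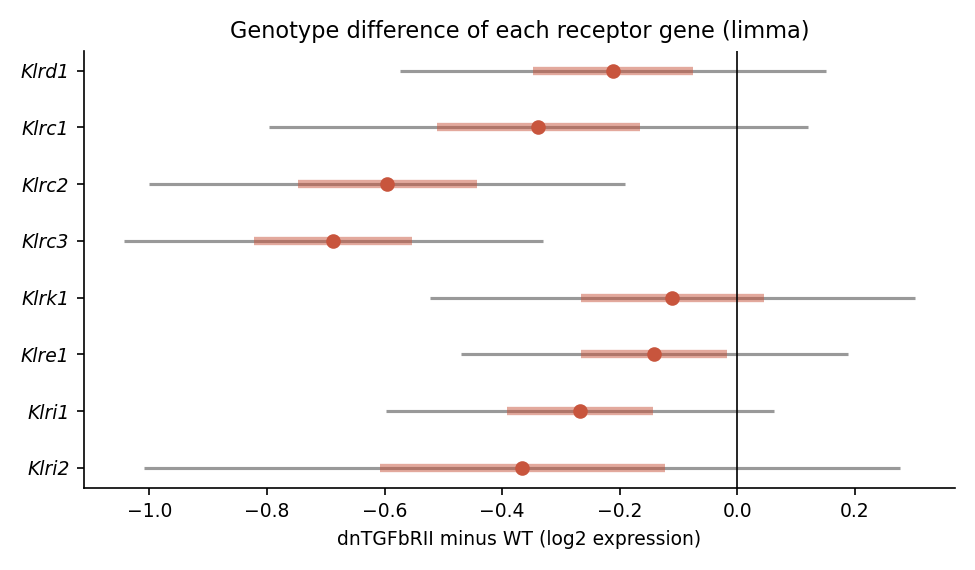
Difference dnTGFbRII minus WT in log2 expression (horizontal axis) for each receptor gene, with the point for the limma estimate, the thick bar for 1 SE on either side and the thin line for the 95% interval. All 8 estimates lie below 0, and the intervals of Klrc2 and Klrc3 end below 0, at -0.19 and -0.33, before adjustment for the number of genes tested.

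Whether a receptor chain and its partner changed unequally was asked within each array, where any shift of the whole array cancels. The distance between the rows of a pair depends on their probes and has no meaning in itself, and only its change between arrays is compared. Klrc3 minus Klrd1 was -4.07 and -4.32 on the WT arrays and -4.52 and -4.82 on the dnTGFbRII arrays, a change of -0.48. Klrc2 minus Klrd1 was -2.36 and -2.80 in WT and -2.87 and -3.06 in dnTGFbRII cells, a change of -0.38 with a gap of only 0.07 between the groups. For both activating chains the value relative to CD94 was thus lower on each dnTGFbRII array than on each WT array. Klrc1 minus Klrd1 was -1.52 and -1.51 in WT and -1.75 and -1.54 in dnTGFbRII cells, a change of -0.13 with the groups 0.02 apart. For Klrk1 the partner was its adaptor Hcst, and Klrk1 minus Hcst went from -1.01 and -1.08 to -1.42 and -1.28, a change of -0.30 to which the higher Hcst of the dnTGFbRII arrays contributed. The exact 2-sided permutation p was 0.333 for each of these 4 ratios, the smallest that 2 arrays against 2 can give, so none could pass a threshold and adjustment over the 4 changes nothing.

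Further ratios were chosen after the values had been seen. The inhibitory against the activating chain, Klrc1 minus Klrc2, was 0.83 and 1.29 in WT and 1.12 and 1.51 in dnTGFbRII cells, and the groups overlapped (change 0.26, exact 2-sided permutation p = 0.667). The same held for Klrc1 minus Klrc3, at 2.54 and 2.81 in WT and 2.77 and 3.28 in dnTGFbRII cells (change 0.35, exact permutation p = 0.667). An unequal change of NKG2A and its activating counterparts was therefore not shown. Klre1 minus Klri1 was 5.54 and 5.55 in WT and 5.66 and 5.69 in dnTGFbRII cells, with a gap of 0.11 that exceeded the spread within each genotype (exact permutation p = 0.333). Klre1 minus Klri2 overlapped, at 1.72 and 2.10 in WT and 1.85 and 2.41 in dnTGFbRII cells.

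**Figure D3:**
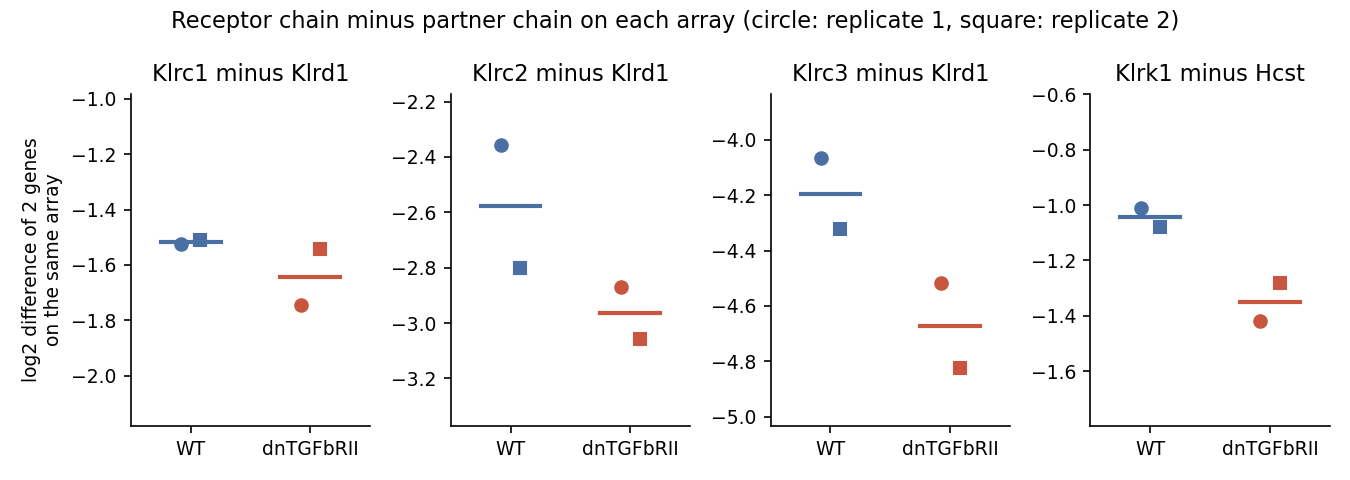
Log2 value of a receptor chain minus that of its partner on the same array (vertical axis, each panel spanning the same width of 1.2 log2 units), for Klrc1, Klrc2 and Klrc3 against Klrd1 and for Klrk1 against Hcst, in WT (blue) and dnTGFbRII (red), with circles for replicate 1, squares for replicate 2 and bars for means. The dnTGFbRII points lie below the WT points in all 4 panels, by 0.02 for Klrc1, 0.07 for Klrc2, 0.20 for Klrc3 and 0.20 for Klrk1.

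The 8 genes lie in a single run on chromosome 6, in the NK gene complex, with 0 other protein-coding genes between the first and the last by the order of the mouse reference gene table. That order is Klre1, Klrd1, Klrk1, Klrc3, Klrc2, Klrc1, Klri1 and Klri2. Along it the differences were -0.14, -0.21 and -0.11 for the first 3 genes, -0.69, -0.60 and -0.34 for the adjacent Klrc genes, and -0.27 and -0.37 for the Klri genes. On the Klre1 side, Gabarapl1, an autophagy gene, differed by -0.14 ± 0.15 (SE) and overlapped between the genotypes. Tmem52b, with a difference of 0.19, lay below the filter. On the Klri2 side, Klrh1 differed by -0.18 ± 0.15 and Klra17 by -0.46 ± 0.22 (SE), both near 5, close to the highest background control rows. Klrh1 and Klra17, which encode further lectin-like receptors, did not pass the test either.

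**Figure D4:**
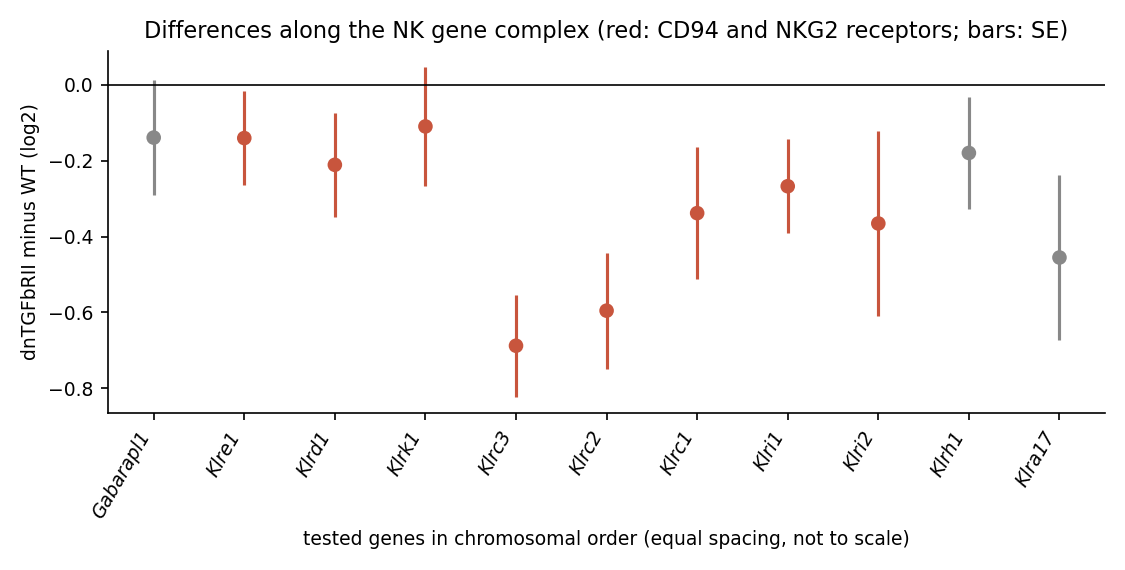
Difference dnTGFbRII minus WT in log2 expression (vertical axis) of the receptor genes (red) and their nearest tested neighbours (grey), in chromosomal order at equal spacing, with bars for 1 SE on either side. The lowest points are the adjacent Klrc3 (-0.69) and Klrc2 (-0.60), and all 11 estimates lie below 0, beside 52.6% of all tested genes. The neighbour Tmem52b (difference 0.19) was below the filter and is not drawn.

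Over the rest of the complex, 22 of 32 listed genes were tested. Of these, 17 differed negatively and 5 positively, with a median of -0.19, beside 52.6% negative over all tested genes. At an unadjusted p under 0.05 in limma 3 lay lower and 4 higher, against 1.29% and 1.95% of all tested genes. None passed the adjusted threshold. The 3 lower genes were Styk1, Klra9 and Clec9a, and Clec9a (-3.48 ± 1.04 SE) is also on the list of dendritic cell markers. The largest test statistics went both ways. Styk1, a receptor pseudokinase gene, differed by -1.15 ± 0.16 (SE) and Klra9, which encodes an inhibitory Ly49 receptor, by -0.82 ± 0.20. Klra7, another Ly49 receptor gene, differed by 2.63 ± 0.45 and Klrg1, an inhibitory receptor found on mature NK cells, by 2.03 ± 0.56. Klrg1 measured 5.42 and 5.28 in WT, where the highest background control row stood at 5.33 and 5.85, so its WT level cannot be told from background and the size of its difference is uncertain. The Ly49 genes are close copies with uncertain single values.

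The receptor with the largest spread over the 4 arrays was Klrc3 (SD 0.40). After each gene's own mean was subtracted, the protein-coding genes nearest to it in Euclidean distance over the 4 arrays, of 10270 compared, were Spcs3 (distance 0.15), Gpr34 (0.17), Frmd5 (0.18), Klrc2 (0.18) and Gcsam (0.18). Klrc2 was thus the fourth nearest gene and the nearest receptor of the set, with Klri2 and Klri1 next at ranks 233 and 241 and Klrk1 last at rank 3045. Spcs3, a signal peptidase subunit gene, measured 10.67 and 10.52 in WT and 10.11 and 9.99 in dnTGFbRII cells, the same order of arrays as Klrc3. Likeness over 4 arrays is a description only, with no test.

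The adaptors were on both sides of 0. Tyrobp, which encodes DAP12, measured 17.77 and 18.06 in WT and 17.70 and 18.03 in dnTGFbRII cells and overlapped, with a difference of -0.05 ± 0.19 (SE). Hcst, which encodes DAP10, measured 13.20 and 13.46 in WT and 13.47 and 13.57 in dnTGFbRII cells, a difference of 0.19 ± 0.15 (SE). Its groups were 0.01 apart, less than the arrays of either genotype, and neither adaptor passed.

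Of the signalling genes on the inhibitory side, 6 of 6 tested lay lower, with a median of -0.17, 3 of them without overlap and 0 at an unadjusted p under 0.05 in limma. Over all tested genes 52.6% were negative, 14.5% lay lower without overlap and 3.23% had an unadjusted p under 0.05 in limma. For Crk the gap between the groups was only 0.009. Ptpn6, which encodes the phosphatase SHP-1 that NKG2A recruits, measured 12.12 and 12.14 in WT and 11.53 and 11.93 in dnTGFbRII cells, a difference of -0.40 ± 0.18 (SE). Ptpn11, which encodes SHP-2, differed by -0.19 ± 0.13, Cbl, a ubiquitin ligase, by -0.23 ± 0.24 and Crk, an adaptor, by -0.10 ± 0.13. On the activating side 8 of 11 tested genes lay lower and 3 higher, with a median of -0.07, and 1 had an unadjusted p under 0.05. This was Fyn, a Src family kinase gene, at 12.78 and 12.87 in WT and 13.30 and 13.40 in dnTGFbRII cells, a difference of 0.52 ± 0.13 (SE). Syk, a kinase downstream of DAP12, differed by -0.28 ± 0.25, Grb2, an adaptor, by -0.14 ± 0.13 and Plcg2, a phospholipase, by -0.21 ± 0.21. Of both lists 0 genes passed the adjusted threshold.

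The sorted cells also express genes on the ligand side. B2m, the light chain of Qa-1 and of other class I molecules, measured 18.45 and 18.49 in WT and 18.54 and 18.59 in dnTGFbRII cells, a difference of 0.09 ± 0.12 (SE), while H2-T23, the Qa-1 heavy chain, is not analysed here. Of 9 tested genes that supply class I molecules and their peptides, 5 lay higher and 4 lower, with a median of 0.01 and 0 at an unadjusted p under 0.05 in limma. The chaperones Canx, Calr and Pdia3 differed by -0.23 ± 0.12, -0.14 ± 0.12 and -0.11 ± 0.12 (SE), and the peptide transporter Tap1 by 0.30 ± 0.28. Of the NKG2D ligand genes 1 of 9 was tested, Ulbp1, which encodes MULT1, with a difference of 0.04 ± 0.12 (SE).

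The label of the sorted cells was checked on Itga2, the DX5 antigen, and on NK cell markers. Itga2 measured 8.32 and 8.56 in WT and 9.06 and 8.83 in dnTGFbRII cells, above the filter on all arrays and without overlap (difference 0.50 ± 0.16 SE, limma unadjusted p = 0.0293). All 12 NK cell markers lay above the filter, and 9 differed negatively, among them Klrd1 and Klrk1, with a median of -0.07 and 0 at an unadjusted p under 0.05 in limma. Their summed level (log2 of the sum of linear values) lay between 20.95 and 21.05 in WT and between 20.85 and 20.99 in dnTGFbRII cells. Ncr1, the receptor NKp46, measured 16.99 and 17.17 in WT and 16.87 and 17.19 in dnTGFbRII cells. With Ncr1 subtracted on each array, a ratio chosen after the values were seen, Klrc3 changed by -0.63 and Klrc2 by -0.54, and the groups did not overlap for either (gaps 0.25 and 0.12, exact permutation p = 0.333 each). With the mean of the 10 NK markers outside the set subtracted on each array, all 8 receptors differed negatively, Klrc3 by -0.62 ± 0.24 and Klrc2 by -0.52 ± 0.25 (SE). Subtracting 1 mean per array moves all 8 by the same amount, so their signs are not 8 separate results. Klrd1 then stood at -0.14 ± 0.19, Klre1 at -0.07 ± 0.21 and Klrk1 at -0.04 ± 0.19 (SE). That scaling, also chosen after the values were seen, left Klrc3 alone at an unadjusted p under 0.05 in limma (0.0425). It lowered the share of negative differences over all tested genes from 52.6% to 33.8%.

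Markers of other cells were read against the 52.6% of all tested genes with a negative difference, and 0 of them passed the adjusted threshold in limma. Beside their counts at an unadjusted p under 0.05 in limma stand 1.29% of all tested genes lower and 1.95% higher. Circulating NK cell markers lay higher in dnTGFbRII cells for 5 of 7 tested genes, with a summed level between 10.52 and 10.84 in WT and between 12.26 and 12.95 in dnTGFbRII cells, and 4 of the 7 had an unadjusted p under 0.05 in limma. Among them were Eomes, a transcription factor of circulating NK cells (2.79 ± 0.49 SE), and Ly6c2 (2.68 ± 0.37), while Cma1 was below the filter. The 4 also hold Itga2, the DX5 antigen, and Klrg1, whose WT level cannot be told from background. S1pr5 (3.84 to 4.66), which lay higher but is not among the 4, was below the highest background control row on every array. Itgam and Klf2 went the other way, at -0.31 ± 0.19 and -0.02 ± 0.23 (SE). Resident NK cell markers lay lower for 8 of 9 tested genes, with summed levels of 17.50 to 17.61 and 17.03 to 17.38. The exception, Il7r, had the largest test statistic of that list, at 1.31 ± 0.33 (SE, limma unadjusted p = 0.0125). Of the lower genes only Itgae had an unadjusted p under 0.05 in limma (-0.47 ± 0.18 SE). Itgae measured 5.01 and 4.66 in WT and 4.28 and 4.46 in dnTGFbRII cells, below the highest background control row on each array. T cell markers lay higher for 8 of 10 tested genes, 6 of these at an unadjusted p under 0.05 in limma. Among these 6, Cd5 (4.53 to 5.17) and Cd40lg (3.88 to 4.66) lay below the highest background control row on every array. So did Cd4 among the 8 higher genes. The CD3 chains Cd3d and Cd3e differed by 2.13 ± 0.23 and 2.78 ± 0.68 (SE) and the coreceptor Cd8a by 1.10 ± 0.16. Their summed level, 15.88 to 16.00 in WT and 15.69 to 15.95 in dnTGFbRII cells, is mostly that of Cd3g, which lay lower (-0.45 ± 0.13), and Cd8b1 and Cd6 were below the filter. Dendritic cell markers lay lower for 10 of 10 tested genes, 6 of them at an unadjusted p under 0.05 in limma, and Xcr1 was below the filter. Their summed levels were 16.62 to 17.29 in WT and 15.73 to 16.40 in dnTGFbRII cells. Except on WT replicate 1, that sum is mostly Itgax, at 16.16 and 16.37 in WT and 15.61 and 16.32 in dnTGFbRII cells. Itgax differed by -0.30 ± 0.27 (SE) and H2-Ab1 by -3.05 ± 0.79. Of the WT arrays, replicate 1 had the higher summed dendritic level, and H2-Ab1 stood there at 15.72 against 13.40 on WT replicate 2. Macrophage and monocyte markers lay higher for 4 of 6 tested genes (summed level 9.46 to 10.95 in WT and 10.10 to 11.33 in dnTGFbRII cells), neutrophil markers for 4 of 4 (7.03 to 7.17 and 7.35 to 7.79) and B cell markers for 1 of 2 (6.91 to 6.97 and 6.94 to 7.04). Single tested neutrophil and B cell markers lay between 3.79 (Ngp) and 5.99 (S100a9). The highest background control row stood at 5.33 to 6.21 over the arrays, so the sums of these lists do not show signal above background. S100a8, Ltf, Mpo, Elane and Retnlg were below the filter, as were the B cell genes Ms4a1, Pax5, Ebf1 and Cr2. Alb was the 1 hepatocyte marker tested and lay lower, with a summed level of that list of 6.58 to 7.40 in WT and 6.47 to 6.56 in dnTGFbRII cells. The part of these other cells in the receptor differences was not tested.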

How the data were processed

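The authors made the deposited log2 values with RMA in the Affymetrix Expression Console, per the submitters' processing notes. The sources used here name no version, RMA variant or genome build, and coordinates are therefore left out. The values were used as deposited. Of 72688 rows, 30604 name 1 gene in the platform annotation and 2146 several (not used). Symbols were updated by Entrez identifier to a mouse reference gene table (GRCm38.p6), which matched 22818 rows. The row with the highest mean stood for each of 30142 genes, and a gene was tested if its mean exceeded 4.22, the median over all rows. The 23 background control rows reached at most 6.21 on any array and the receptors were at 10.40 or above. Array medians lay between 4.20 and 4.26. Depth does not apply to arrays, whose number limits the precision.

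The comparison used limma 3.58.1 (lmFit, then eBayes, 2-sided) under R 4.3.3, with 2 residual degrees of freedom and 2.54 from the prior. The Benjamini-Hochberg adjustment covered all 16245 genes. The scripts were tested on simulated data. Named genes are the 8 receptors, their adaptors, ligands and chromosomal neighbours, the 5 genes nearest to the most variable receptor, and up to 4 tested genes of each pathway list by test statistic. The receptors and lists were chosen with earlier results of these data known. Alternatives were another prior, filters, scalings and row summaries, the replicate number as a block, another threshold and each array left out.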

Additional observations from a re-analysis of the deposited data

How the results depend on the processing

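Of 12 alternatives, 5 change only the test or the genes tested and leave a receptor's difference as it is. Under the 3 scalings 24 of 24 differences were negative. Median centring and NK marker centring move every receptor by the same amount, so the signs under each are not separate checks. With an array left out the sign could turn only for Klrk1 and Klri2, whose groups overlap, and 7 of their 8 values were negative, the exception being Klrk1 without dnTGFbRII replicate 1 (0.008). No receptor passed the adjusted threshold in limma under any alternative, including an adjusted p under 0.1. Over all genes the count past it was 0 except without WT replicate 2 (range 0 to 6 over the left-out arrays). The count of receptors at an unadjusted p under 0.05 in limma, 2 in the main comparison, was 1 to 3 with an array left out (1 without WT replicate 1, where Klrc3 remained), 3 with no filter, and 1 with NK marker centring. The share of all genes at that level was 3.23% in the main comparison, 1.80% to 5.91% with an array left out, 4.18% with no filter and 1.87% with NK marker centring. Repeated quantile normalization left 3 receptors lower without overlap, Klrc2, Klrc3 and Klri1, instead of 6. Median centring gave 7 against 18.2% of all genes and NK marker centring 6 against 4.59%. With an array left out it was 7 each time, but 29.0% to 37.9% of all genes then lay lower without overlap, against 14.5% with all arrays. The differences of Klrc3 ranged from -0.77 to -0.60 and those of Klrc2 from -0.74 to -0.45. With an array left out, the change of the ratio to Klrd1 ranged from -0.23 to -0.03 for Klrc1, from -0.60 to -0.16 for Klrc2 and from -0.63 to -0.32 for Klrc3, and that of Klrk1 to Hcst from -0.37 to -0.24.

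Both genotypes share the replicate numbers 1 and 2, and what a number marks is not given. Same-numbered arrays deviated together over the tested genes (r = 0.51), a single correlation that does not establish a pairing. With the replicate block, 4 receptors had an unadjusted p under 0.05 in limma, Klrc1, Klrc2, Klrc3 and Klri2, against 9.03% of all genes, and the lowest adjusted p of a receptor was 0.374. Of 8 receptors, 0 passed. With a lone array in a genotype, its spread was assumed to equal that of the other genotype.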

Other observations

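The control rows of the arrays divided by replicate number. All 4 hybridization control rows, which detect transcripts spiked in before hybridization, were higher on the arrays numbered 2 in both genotypes, as were all 4 labelling control rows and 20 of 23 background rows. Among the NK cell markers outside the set, 7 of 10 were higher on the arrays numbered 2 in both genotypes and 1, Gzma, was lower. The receptors split evenly. Klrd1, Klrc1 and Klrk1 were higher on the arrays numbered 2 in both genotypes, Klrc2, Klrc3 and Klri2 were lower there, and Klre1 and Klri1 were mixed. Over all tested genes 33.7% were higher and 38.0% lower on those arrays in both genotypes. What the replicate number stands for is not given in the labels.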
